A study of Homo sapiens with 6 samples.

Results

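The genes of the cytosolic ribosomal proteins were examined in mRNA-seq data of Kasumi-1 cells treated with I3 for 48 h. The members were the protein-coding genes whose symbol starts with RPL or RPS and a digit, with RPLP0, RPLP1, RPLP2, RPSA and FAU added and the RPS6K kinases and Y-linked genes left out. This rule found 85 of the 29810 genes in the table, of which 32 encode proteins of the small subunit, 46 encode proteins of the large subunit and 7 are paralogs named after a ribosomal protein gene. Kasumi-1 cells come from a human acute myeloid leukemia (AML) with the t(8;21) translocation, which joins RUNX1 to RUNX1T1, and I3 is a histone deacetylase (HDAC) inhibitor. The control group consisted of 3 libraries of cells incubated with the vehicle, DMSO, and the I3 group of 3 libraries of cells incubated with 0.25 μM I3. The libraries held polyadenylated RNA, so the values count mRNA and not ribosomal RNA or protein. The labels name 3 samples per group but do not say that they came from separate cultures, so the p-values measure only the spread between these samples.

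The cytosolic ribosome translates nuclear-encoded mRNA. Its small subunit reads the mRNA, whereas its large subunit joins the amino acids and carries the tunnel through which the new protein leaves. Cells need the ribosomal proteins in matched amounts, and their mRNAs are among the most abundant of a growing cell. Most of these mRNAs start with a C and an unbroken run of pyrimidines, which is the terminal oligopyrimidine (TOP) element through which mTORC1 and LARP1 control their translation.

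The start sites are shown first because this element is the sequence feature the members are known to share. RefSeq (GRCh38.p14) gave start sites for 68 of the 85 members. Each line below gives 10 bases before and 20 bases from the RefSeq start, 5′ to 3′, and the capitals mark the run of C and T at the start. The first pair are highly expressed genes of the large and the small subunit, and the others set core genes beside their paralogs.
RPLP0, chr12:120201092-120201121, minus strand: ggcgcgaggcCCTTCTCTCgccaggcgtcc
RPS12, chr6:132814559-132814588, plus strand: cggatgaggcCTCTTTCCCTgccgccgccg
RPL22, chr1:6199576-6199605, minus strand: cgctcacctcCCTTTCTaactccgctgccg
RPL22L1, chr3:170870176-170870205, minus strand: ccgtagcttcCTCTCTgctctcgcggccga
RPL26, chr17:8383174-8383203, minus strand: gcgtgtagttCTCTTCCCTTTTgcggccat
RPL26L1, chr5:172958719-172958748, plus strand: tccaggggtcggcgaacgaaacgcggagct
RPL36A, chrX:101391001-101391030, plus strand: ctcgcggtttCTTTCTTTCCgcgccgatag
RPL36AL, chr14:49620607-49620636, minus strand: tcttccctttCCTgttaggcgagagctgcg
RPS27, chr1:153990752-153990781, plus strand: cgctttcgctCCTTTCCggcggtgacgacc
RPS27L, chr15:63157458-63157487, minus strand: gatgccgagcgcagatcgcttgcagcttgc

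A C at the start followed by at least 4 more pyrimidines was present at a start of 48 of the 68 members (70.6%). The same letters were found at a start of 1356 of 27237 other genes (4.98%). The run was present in 19 of 25 small subunit genes, in 28 of 38 large subunit genes and in 1 of 5 paralogs, which was RPL22L1. It had a median length of 8 bases and was longest in RPL39, with 19 bases. RPL26L1 has 2 starts in RefSeq, of which the first is shown, and neither this start nor that of RPS27L began with a pyrimidine. RPL36AL began with a run of 3 pyrimidines, which was under the minimum of 5. The 10 bases printed before its start are also all C or T. Runs were counted only from the RefSeq start, so these counts depend on the annotated base.

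Other promoter letters were searched on both strands of the 300 bases around each start, 250 before and 50 after it. CCGGAAG, the letters of an ETS-type site, was found in 24 of 68 members (35.3%) and in 12.1% of other genes. AAGATGGC, the letters of a YY1-type site, was found in 8 members (11.8%) and in 3.50% of other genes. GGGCGG, a GC box, was found in 58.8% of the members and 48.3% of other genes. TATAAA, the letters of a TATA box, was found in 8.82% of the members and 14% of other genes. These matches describe the letters of the window and do not show that a factor binds there.

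The members also shared features of their gene structure. Of the 85 genes, 28 (32.9%) hold at least 1 snoRNA or scaRNA gene within their bounds in GENCODE 29. Among the other tested protein-coding genes 175 of 10281 (1.70%) do. Small nucleolar RNAs guide the modification of ribosomal RNA and are often cut from the introns of ribosomal protein genes. The members lie on 21 chromosomes, and 12 of them (14.1%) lie on chromosome 19, which holds 7.63% of the tested protein-coding genes. Their coding sequences are short, with a median of 453 nt against 1377 nt for the tested genes, from 75 nt in RPL41 to 1281 nt in RPL4.

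Expression was measured in FPKM, that is fragments scaled to the exon length of a gene and to the size of the library, as deposited by the authors. The values per gene were multiples of the value of 1 read, from which a depth of 17500320 to 18193372 reads per library was rebuilt. At this depth a read on 1 kb of exon was worth about 0.055 to 0.057 FPKM. Cell identity was checked with markers. All 7 markers of myeloid progenitors passed the minimum, with MPO, the granule enzyme of this lineage, between 7740.2 and 8612 FPKM and KIT between 198 and 225 FPKM. The 4 erythroid markers in the table were at or under 0.262 FPKM in every library, the 4 lymphoid markers were at or under 1.9 FPKM (CD79A), and of the epithelial and stromal markers EPCAM was between 28.2 and 31.6 FPKM while KRT8 and COL1A1 were at or under 0.0327 FPKM.

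The ribosomal protein genes were among the most highly expressed genes of the cells. Their median FPKM over the 6 libraries was 289.8, whereas the median of the 12960 tested genes was 5.24. Of the 85 members, 65 reached 100 FPKM and 8 reached 1000 FPKM, and 41 of the 100 genes with the highest FPKM were members. All but 1 passed the minimum mean of 0.5 FPKM that was set for testing. The exception was RPL3L, the paralog of RPL3 known from heart and skeletal muscle, which was listed at 0 in 4 libraries and at 0.0204 and 0.104 FPKM in control 2 and control 3.

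**Figure D1:**
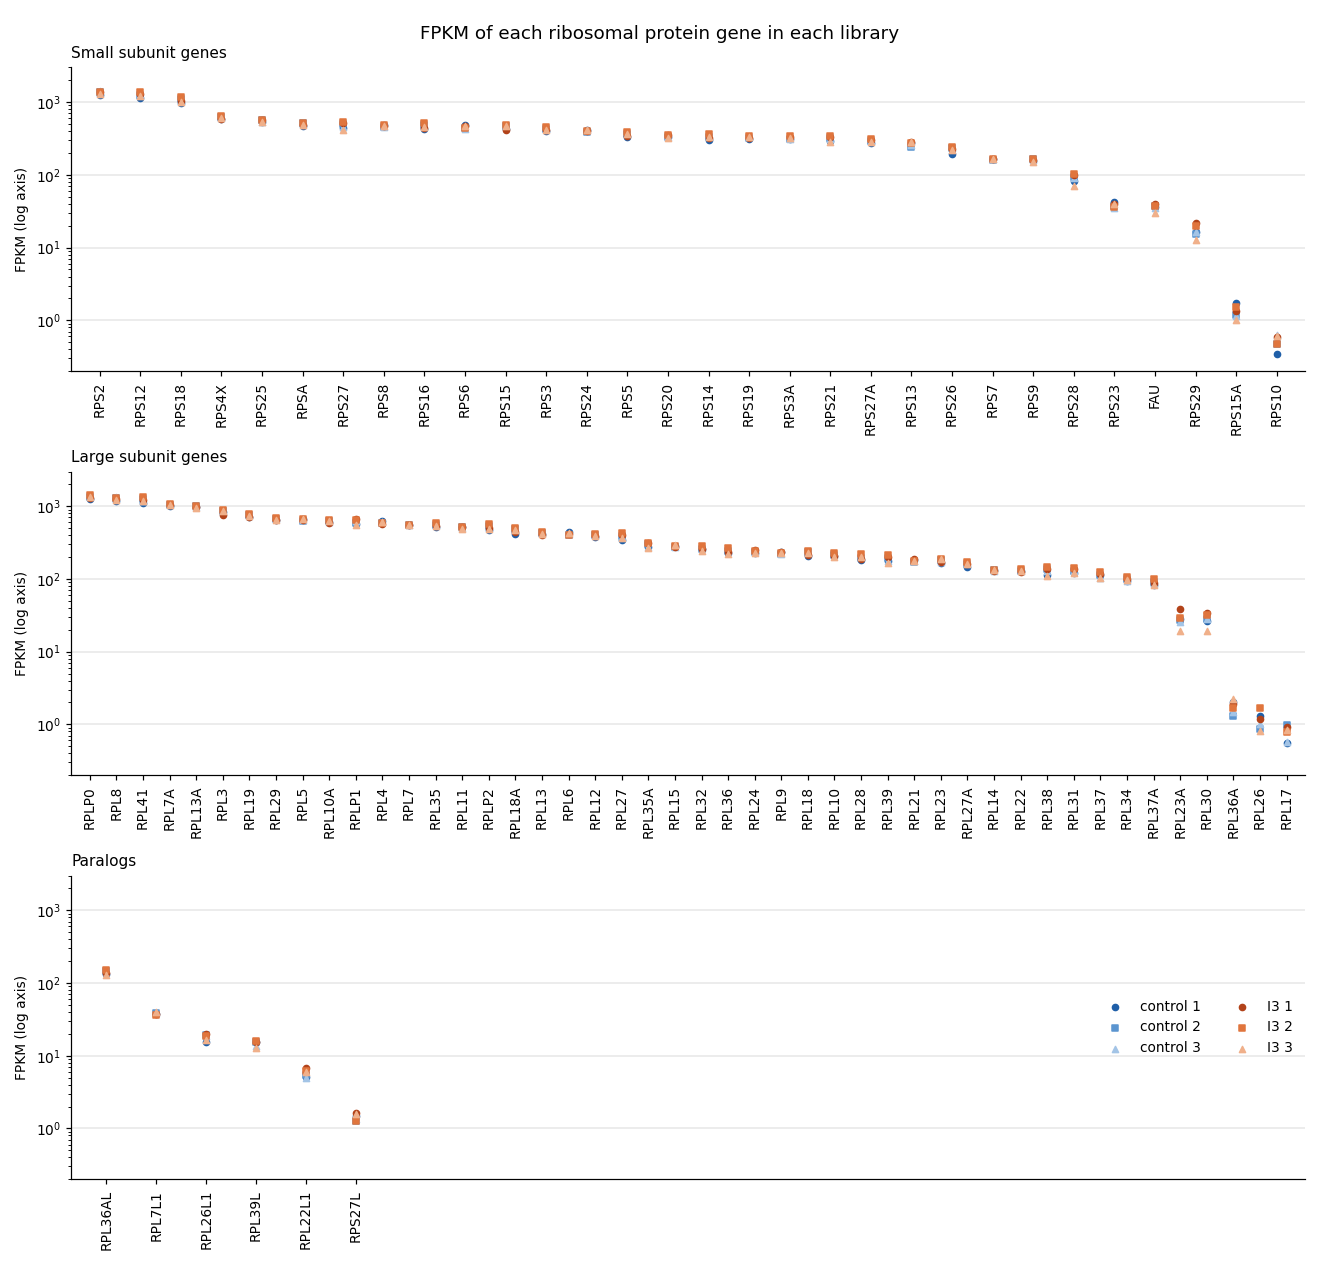
FPKM (log axis) of 82 of the 84 tested ribosomal protein genes, ordered by their mean within the small subunit, the large subunit and the paralogs, with 1 point for each of 3 control and 3 I3 libraries. The points of a gene lie close together beside the range between genes, and RPS10, RPS15A, RPL36A, RPL26 and RPL17 sit below 3 FPKM in every library, apart from the other subunit genes.

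RPS2, RPLP0, RPL8 and RPS12 were among the members with the highest FPKM. RPS2, a protein near the mRNA entry site of the small subunit, was at 1255, 1392 and 1402 FPKM in control 1, 2 and 3 and at 1359, 1386 and 1284 FPKM in I3 1, 2 and 3. Control 1 was the lowest library and the groups overlapped. RPL8, a protein of the large subunit close to the catalytic center, was at 1175, 1313 and 1337 FPKM in control and 1252, 1317 and 1210.4 FPKM in I3 libraries. RPS12 was at 1136, 1267 and 1298 FPKM in control and 1309, 1389.6 and 1199 FPKM in I3 libraries. The SDs over 3 libraries were between 52.6 and 95.5 FPKM for RPS2, RPL8 and RPS12. Within libraries, RPS2 was above RPL8 every time. RPS12 was below both in the control libraries and in I3 3, above RPL8 in I3 1 and I3 2, and above RPS2 in I3 2.

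The stalk of the large subunit is made of RPLP0 and the acidic proteins RPLP1 and RPLP2, and it recruits the translation factors. RPLP0 was at 1273, 1344 and 1367 FPKM in control and 1287, 1404 and 1337 FPKM in I3 libraries. RPLP1 was at 568, 584 and 621 FPKM in control and 660.1, 647 and 549 FPKM in I3 libraries. RPLP2 was at 464, 528 and 510.4 FPKM in control and 501, 563 and 480.5 FPKM in I3 libraries. The groups overlapped for all 3 genes, and their log2 fold changes (I3 against control) were 0.02 (SE 0.0561), 0.06 (SE 0.0803) and 0.04 (SE 0.0775).

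Some subunit genes were listed at values close to 0. RPS10 had a mean of 0.519 FPKM, RPL17 of 0.774, RPL26 of 1.14, RPS15A of 1.32 and RPL36A of 1.77 FPKM. All of these encode core proteins of the ribosome, and the next lowest core gene, RPS29, had 17.1 FPKM. In GENCODE 29 the coding bases of these 5 genes lie to a large part in exons of another gene on the same strand. Over all other genes together the share was 92.1% for RPS10, 100% for RPL17, 71.0% for RPL26, 54.6% for RPS15A and 94.3% for RPL36A. The gene sharing the most exon bases was, in this order, the read-through gene RPS10-NUDT3, RPL17-C18orf32, ENSG00000263809, AC138811.2 and RPL36A-HNRNPH2. Reads in such exons cannot be assigned to 1 gene by position alone.

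Over all 78 subunit genes, 7 shared at least 50% of their coding bases in this way, and 5 of these 7 were under 2 FPKM. RPL22, also among the 7, shared 59.9%, with AL031847.2 as the gene sharing the most exon bases, and had a mean of 129 FPKM. Of the 71 subunit genes that shared less, none was under 2 FPKM, and 69 of them shared no coding base. The values of the 5 low genes are therefore given here as listed, and the part of the overlap in them was not tested. They also varied most between control libraries. The coefficient of variation was 34.1% for RPL17 (0.551, 0.98 and 0.579 FPKM), 29.1% for RPS10 (0.345, 0.479 and 0.626 FPKM) and 24.3% for RPS15A (1.72, 1.19 and 1.13 FPKM), against a median of 4.45% over the tested members.

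**Figure D2:**
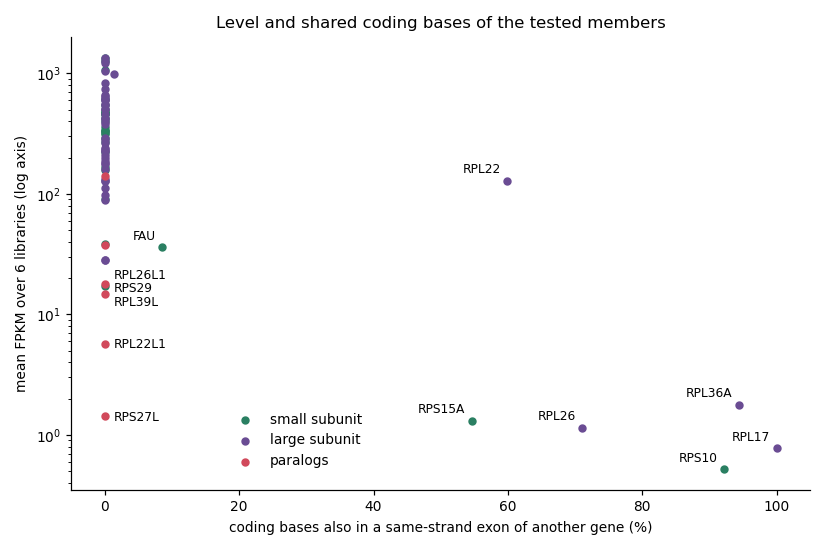
Mean FPKM over 6 libraries (log axis) of 82 of the 84 tested members against the percentage of their coding bases that lie in a same-strand exon of another gene, 1 point per gene and colored by subunit. The 5 subunit genes under 2 FPKM all lie at 54.6% or more, and RPL22 lies at 59.9% with a higher level.

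Length affects such comparisons as well, since FPKM divides by all annotated exons of a gene. RPS29, a zinc-binding protein of the small subunit, has a coding sequence of 168 nt but 9845 nt of annotated exon, and its 17.1 FPKM stood for 2295 to 3803 reads per library. RPS27L has 9127 nt of annotated exon for a coding sequence of 252 nt. Processed pseudogenes are short by contrast. RPS28P7, a pseudogene copy of RPS28 with 210 nt of exon, was listed at 2169, 2480.1 and 2496 FPKM in control and 2054, 2604 and 2541 FPKM in I3 libraries, whereas RPS28 itself was at 82.5, 93.9 and 91.4 and at 98.8, 102 and 70.2 FPKM. A copy of RPL36A, RPL36AP37, was at 352 to 389 FPKM in control and 331 to 421 FPKM in I3 libraries, against a mean of 1.77 FPKM for RPL36A. In all, 627 pseudogenes named after members were in the table, 285 to 326 of them above 0 in a library. They held reads equal to 3.21% to 3.33% of those on the members in each library. Pseudogenes and their parent genes are nearly identical in sequence, so the split of reads between them is uncertain.

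The comparison of I3 with control addressed which mRNAs changed in cells treated with the HDAC inhibitor. With limma over 12960 genes, no gene of the table was called in either direction at an adjusted p under 0.05 and an absolute log2 fold change of at least 0.58. The background was therefore 0.0% higher and 0.0% lower, and 0 of 84 tested members were called. The smallest adjusted p over all genes was 0.309, and voom on rebuilt reads also called 0 genes. The study reported changed genes in both directions at these thresholds, with a test made for read counts. The 0 calls here therefore do not show that no gene responded to I3. At an unadjusted p under 0.05, limma found 639 genes (4.93%), of which 2.08% were higher and 2.85% lower. Of the members, 1 was higher (RPL22L1) and 0 were lower, which is 1.19% of the tested members and less than the background share. In bulk RNA a lower number of cells of a kind and a lower level per cell cannot be told apart.

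The members' fold changes were small and precisely measured. Their log2 fold changes ranged from -0.05 (RPS15A) to 0.26 (RPL22L1), with a median of 0.03 against 0.01 for all tested genes. The 95% interval of the log2 fold change stayed within 0.58 on both sides for 81 of 84 members (96.4%) and for 81.6% of all tested genes. The exceptions were RPL36A, RPL17 and RPL26, which are 3 of the low genes with shared exons. For 67 members (79.8%) the interval lay within a change of 1.2-fold in either direction, which held for 33.4% of all tested genes. The members also had a higher median level than these genes (289.8 against 5.24 FPKM). Narrow intervals were not particular to them. The same bound held for 82.4% of 17 translation factors and other TOP genes and 69.2% of 39 ribosome biogenesis genes. It held for 46.6% of 73 genes of the mitochondrial ribosome. The median SE was 0.0668 for the members and 0.102 for all genes.

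**Figure D3:**
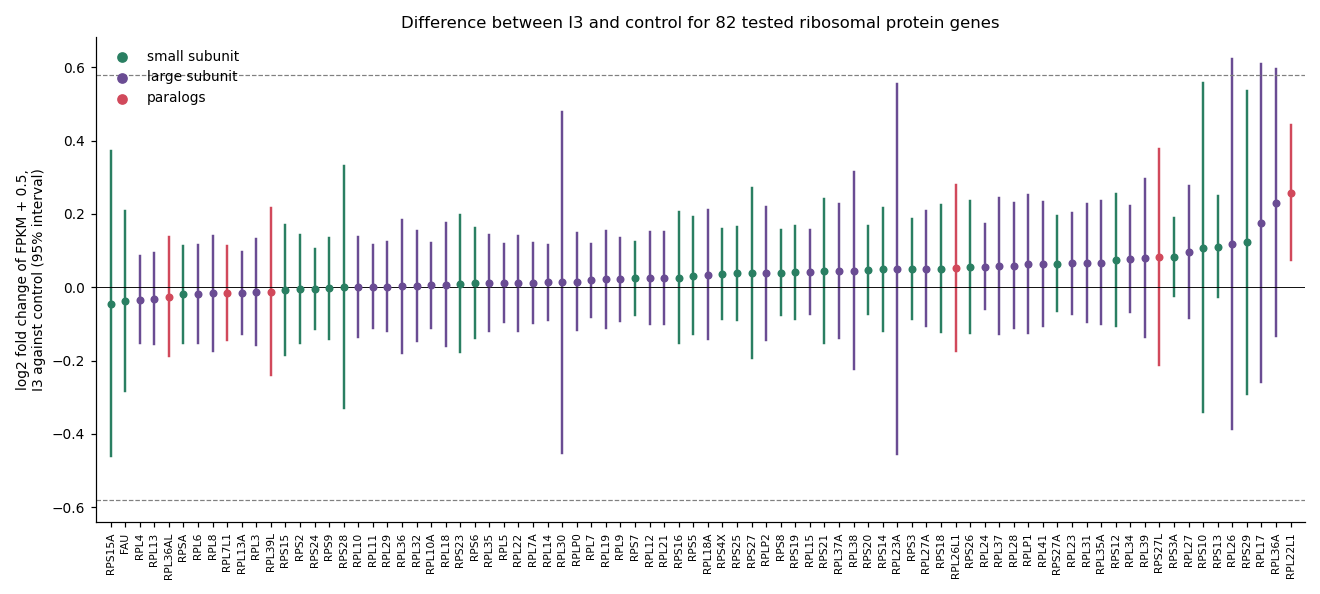
Log2 fold change of FPKM + 0.5 (I3 against control, points) with its 95% limma interval (bars) for 82 of the 84 tested members, ordered by fold change and colored by subunit, with dashed lines at the fold threshold of 0.58. All points lie between -0.05 and 0.26, and only the bars of RPL26, RPL17 and RPL36A cross a dashed line.

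More members had a log2 fold change above 0 than below it. The count was 67 of 84 (79.8%), against 54.2% of all tested genes. This count rested on single libraries. It was 42 of 84 without I3 2, with a median log2 fold change of 0.00, and 49 of 84 without control 1, with a median of 0.01. With median-of-ratios scaling it was 58 of 84. Groups that did not overlap were found for 4 members, all of them higher with I3 (RPL22L1, RPS3A, RPS7 and RPL7). This is 4.76% of the tested members, and 9.7% of all tested genes had such groups (5.06% higher, 4.64% lower).

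RPL22L1 had the largest fold change and the smallest p among the members. It is the paralog of RPL22 and lies on chr3:170864875-170870483. It was at 5.09, 5.48 and 4.86 FPKM in control and at 6.73, 6.06 and 5.95 FPKM in I3 libraries, so each I3 library lay above each control library. The log2 fold change was 0.26 (SE 0.0784, 95% interval 0.07 to 0.44), with a limma p of 0.0127 and an adjusted p of 0.843, so it did not pass the test. The FPKM rested on 198 to 227 reads in control and 251 to 279 reads in I3 libraries. RPL22, the abundant RNA-binding protein of the large subunit, was at 129, 127 and 128 FPKM in control and 123, 138 and 127 FPKM in I3 libraries, and the groups overlapped.

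The libraries fell into 2 classes by the sign of their correlation with GC content, which was negative in control 1, I3 1 and I3 3 and positive in control 2, control 3 and I3 2. The classes were defined from these same libraries. Within the negative class RPL22L1 differed by 0.29 (log2, 1 control and 2 I3 libraries), and within the positive class by 0.21 (2 control and 1 I3 library). Each I3 value of RPL22L1 lay above each control value, so both differences had to be positive and add no support. Over the members the median difference was 0.03 in the negative class, where 54 of 84 members (64.3%) and 46.9% of all tested genes were higher with I3. In the positive class it was 0.07, and 75 of 84 members (89.3%) and 56.9% of all tested genes were higher. The only control library of the negative class was control 1, which held the lowest value of 33 of the 84 members. The only I3 library of the positive class was I3 2, which held the highest value of 52. These shares thus rest on the same single libraries as the count of members above 0. The differences within a class were not tested.

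The other members with the smallest p in the direction of higher levels were RPS13, RPS3A, RPL36A, RPL34 and RPL27. RPS13, a protein of the small subunit platform, was at 276, 242 and 258 FPKM in control and 279, 273 and 284 FPKM in I3 libraries, with overlap between control 1 and I3 2. RPS3A was at 316, 315 and 307 FPKM in control and 329, 341 and 326 FPKM in I3 libraries, without overlap. Their log2 fold changes were 0.11 (SE 0.059) and 0.08 (SE 0.0453). RPL36A was at 2.01, 1.3 and 1.47 FPKM in control and 1.93, 1.69 and 2.22 FPKM in I3 libraries, with a log2 fold change of 0.23 (SE 0.155). RPL34 and RPL27 had log2 fold changes of 0.08 and 0.10. The unadjusted limma p was 0.101 or above for all 5 genes, the adjusted p was 0.998, and none of them passed the test.

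In the direction of lower levels the smallest p-values belonged to RPL4, RPL13, RPL36AL, FAU, RPSA and RPL13A. RPL4, which lines the exit tunnel, was at 618, 586 and 612 FPKM in control and 576, 583 and 616 FPKM in I3 libraries, a log2 fold change of -0.03 (SE 0.0508, 95% interval -0.15 to 0.09). RPL13 was at 416, 434 and 429 FPKM in control and 398, 437 and 418 FPKM in I3 libraries, also with a log2 fold change of -0.03. The groups overlapped for both genes. The unadjusted limma p of these 6 genes was 0.53 or above. RPSA, which is also known as the laminin receptor, was at 477, 511 and 519 FPKM in control and 480.0, 518 and 489 FPKM in I3 libraries.

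By subunit, 24 of 32 small subunit genes and 40 of 46 large subunit genes had a log2 fold change above 0, with medians of 0.04 and 0.02, against 54.2% and a median of 0.01 over all tested genes. None of these genes passed an unadjusted p of 0.05 in either direction. RPS6, the substrate of the S6 kinases downstream of mTORC1, was at 491, 442 and 431 FPKM in control and 463, 438 and 472 FPKM in I3 libraries. RPL38, which is known for its part in the translation of Hox mRNAs in mouse embryos, was at 114, 136 and 127 FPKM in control and 136, 146 and 109.6 FPKM in I3 libraries. RPL41, the smallest ribosomal protein, was at 1111, 1251 and 1196 FPKM in control and 1203, 1342 and 1176 FPKM in I3 libraries. The groups overlapped for these 3 genes, and their log2 fold changes were 0.01, 0.05 and 0.06.

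The ratio of the summed FPKM of the large subunit genes to that of the small subunit genes was 1.42 ± 0.0144 (SD, n = 3) in control and 1.40 ± 0.017 (SD, n = 3) in I3 libraries. Since levels depend on the annotated exon lengths, the ratio is not one of molecules. The difference between the groups (I3 minus control) was -0.0154, close to the SD of either group. Among the proteins made as fusions, RPS27A, which carries ubiquitin, was at 278, 289.6 and 289 FPKM in control and 299.7, 314 and 282 FPKM in I3 libraries. FAU, which carries a ubiquitin-like domain, was at 36.5, 37.8 and 34.8 FPKM in control and 39.7, 37.4 and 29.9 FPKM in I3 libraries. I3 3 was the lowest I3 library for both genes, and both had overlapping groups.

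Of the 7 paralogs, 6 were tested, and 3 had a log2 fold change above 0, against 54.2% of all tested genes. Paralogs can take the place of their parent protein in the ribosome of some tissues. RPL36AL was at 134, 147 and 142 FPKM in control and 136, 151 and 129 FPKM in I3 libraries, with a log2 fold change of -0.03 (SE 0.0693). RPL26L1 had means of 17.7 ± 1.83 (SD, n = 3) FPKM in control and 18.3 ± 1.61 (SD, n = 3) FPKM in I3 libraries. RPL26 was listed at 1.06 ± 0.224 (SD, n = 3) FPKM and 1.22 ± 0.442 (SD, n = 3) FPKM. The paralog was thus listed above its parent for both pairs, RPL36AL with RPL36A and RPL26L1 with RPL26, and both parents are among the genes with shared exons.

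In the other pairs the parent was higher in every library. RPL39L, known from male germ cells, was between 12.7 and 15.9 FPKM, and RPL39, a short protein of the exit tunnel, was at 175, 193 and 178 FPKM in control and 199, 213 and 168 FPKM in I3 libraries. RPS27L, a known p53 target, was between 1.25 and 1.64 FPKM, and RPS27 was between 416 and 529 FPKM. RPL7L1 was between 35.8 and 39.5 FPKM. RPL7 was at 554, 552 and 549.5 FPKM in control and 557, 559.8 and 559.8 FPKM in I3 libraries, so its groups did not overlap, with a log2 fold change of 0.02 (SE 0.0423). RPL3 was between 768 and 875 FPKM, whereas RPL3L was close to 0 in every library. RPL10L was not analysed here. Of the tested paralogs and their parents, only RPL22L1 passed an unadjusted limma p of 0.05 between I3 and control.

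Some ribosomal protein genes are known from inherited and acquired blood disease. Mutations of 20 of the members are known in Diamond-Blackfan anemia, in which the bone marrow fails to make red cells. Of these 20 genes, 17 (85%) had a log2 fold change above 0, against 79.8% of the tested members and 54.2% of all tested genes. Their median log2 fold change was 0.03, as over all members. None passed an unadjusted p of 0.05, which 4.93% of all tested genes did. RPS19, the gene most often affected, was at 311, 324 and 342 FPKM in control and 324, 345 and 335 FPKM in I3 libraries, a log2 fold change of 0.04 (SE 0.0545, 95% interval -0.09 to 0.17). RPS7 was between 162 and 166 FPKM in control and between 166 and 168 FPKM in I3 libraries, without overlap, and its log2 fold change was 0.02 (SE 0.0427). Groups without overlap were found for 9.7% of all tested genes.

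RPL5, RPL10, RPL11, RPL22, RPS14 and RPS15 are known to be mutated or lost in leukemia and other cancers, and RPL5 and RPL11 are also among the anemia genes. RPL5 and RPL11 bind the 5S ribosomal RNA and can hold back MDM2, the ligase of p53. RPL5 was at 661, 634 and 653 FPKM in control and 642, 658 and 663 FPKM in I3 libraries. RPL11 was at 513, 514 and 503 FPKM in control and 517, 526 and 489 FPKM in I3 libraries. RPS14, which is lost in myelodysplastic syndrome with a deletion of chromosome 5q, was at 301, 336 and 343 FPKM in control and 319, 361 and 333 FPKM in I3 libraries. RPL10 was between 201 and 225 FPKM and RPS15 between 414 and 489 FPKM over the 6 libraries. The groups overlapped for all 6 genes, their 95% intervals stayed within 1.2-fold, and the median log2 fold change was 0.01. All 8 members at the exit of the peptide tunnel had a log2 fold change above 0 (median 0.06), against 79.8% of the tested members and 54.2% of all tested genes, and none passed an unadjusted p of 0.05. RPL17 and RPL26, which share exons with other genes, are among the 8, and without I3 2 the count over all members fell to 42 of 84.

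The level of the whole family was compared by sums. The summed FPKM of the 85 genes was 30463, 32217 and 31991 in control 1, 2 and 3 and 31609, 33574 and 31139.6 in I3 1, 2 and 3. The means were 31557 ± 954 (SD, n = 3) and 32107 ± 1292 (SD, n = 3), a ratio of 1.02, and the difference was smaller than the SD of either group. As a share of all rebuilt reads, the members took 8.96%, 9.32% and 9.31% in control and 9.16%, 9.71% and 9.13% in I3 libraries. The groups overlapped in both measures.

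The members moved together between libraries of 1 group. Relative to each gene's mean over the 6 libraries, the median member was at -0.059, 0.018 and -0.0041 (log2) in control 1, 2 and 3 and at -0.0011, 0.086 and -0.025 in I3 1, 2 and 3. Control 1 held the lowest value of 33 of the 84 tested members, I3 3 held that of 26, and I3 2 held the highest value of 52. The difference between I3 2 and I3 3, which were treated alike, was thus larger than the median difference between the groups. The median over all tested genes was between -0.02 and 0.02 in the same libraries.

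**Figure D4:**
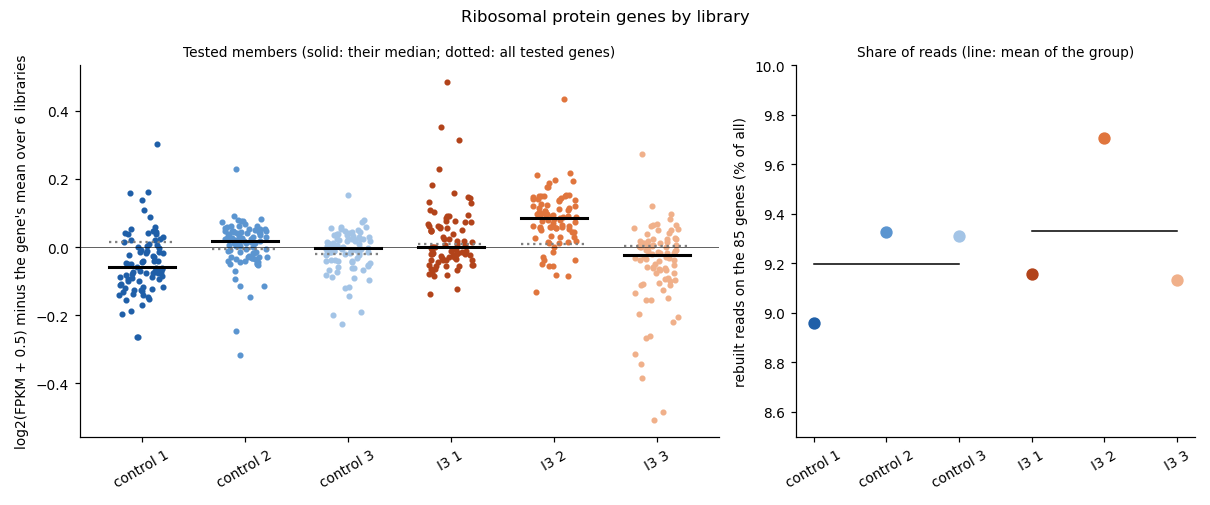
Left, log2(FPKM + 0.5) of each of the 84 tested members minus the gene's mean over 6 libraries, by library, with the median of the members (solid line) and of all tested genes (dotted line). Right, the share of rebuilt reads on the 85 members in each library, with the mean of each group as a line and an axis that starts at 8.5%. The points of I3 2 lie highest, with a median of 0.09 and 9.71% of reads, and those of control 1 lie lowest, with -0.06 and 8.96%.

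This shift went with the coding length of the gene in some libraries. Among the 28 members with the shortest coding sequences (75 to 396 nt) the median deviation was 0.07 in I3 1, 0.14 in I3 2 and -0.10 in I3 3. Among the 28 members with the longest (564 to 1281 nt) it was -0.02, 0.05 and 0.00. The rank correlation of the deviation with coding length over the 84 members was -0.47, -0.59 and 0.51 in I3 1, 2 and 3 and 0.19, -0.18 and 0.27 in control 1, 2 and 3. It is a description across genes of the same libraries. Over the 10371 tested genes with a coding length it was between -0.11 and 0.13. The deviation of the members also followed GC content, with rank correlations from -0.44 in I3 1 to 0.58 in control 3. Over the 12939 tested genes with a GC value they were from -0.45 in I3 3, where that of the members was -0.14, to 0.45 in control 2. The part of length and GC content in the differences between libraries was not tested.

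**Figure D5:**
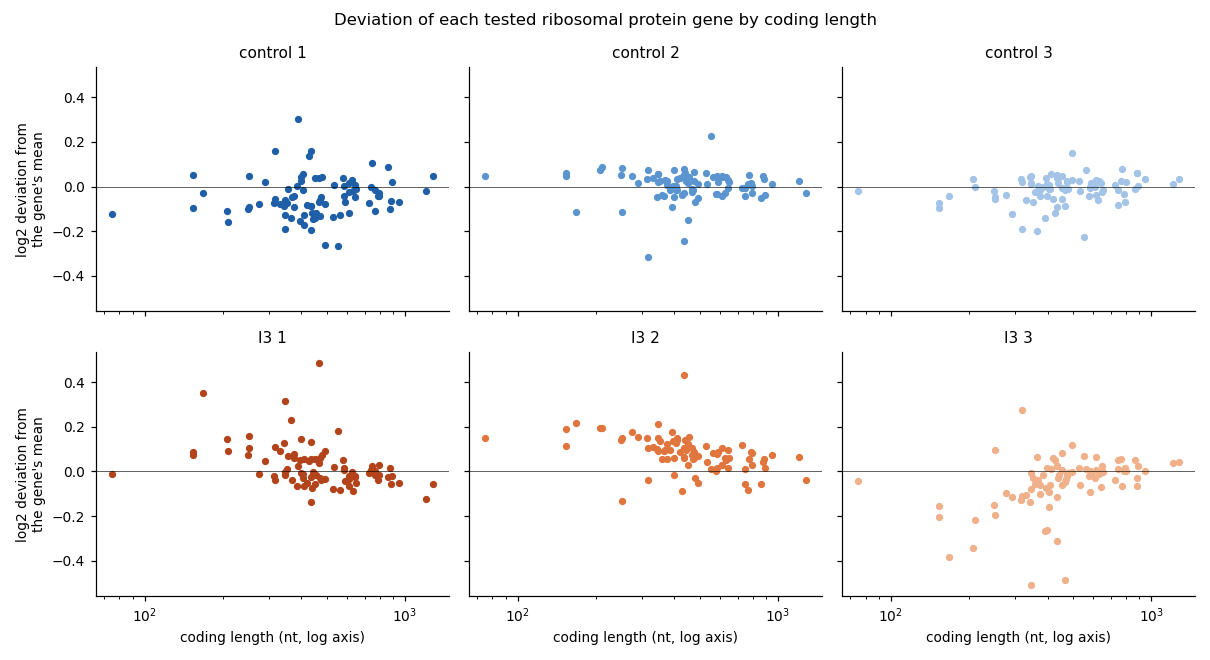
Deviation of each of the 84 tested members from its mean over 6 libraries (log2) against its coding length (nt, log axis), 1 panel per library. The median of the 28 shortest genes lies above 0 in I3 2 (0.14) and below 0 in I3 3 (-0.10), where the rank correlations are -0.59 and 0.51. Some short genes, such as RPL36A and RPS27L, lie the other way in both libraries.

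RPS29, RPL30 and RPL23A varied widely within the I3 group, and they were chosen after their values had been seen. Their coding lengths are 168, 345 and 468 nt, the last of which is above the median of the members. RPS29 was at 16.5, 15.6 and 16.4 FPKM in control and 21.7, 19.7 and 12.8 FPKM in I3 libraries. RPL30 was at 26.4, 28.0 and 27.9 FPKM in control and 34.4, 32 and 19.3 FPKM in I3 libraries. RPL23A, a protein at the tunnel exit, was at 28.3, 27.0 and 25.9 FPKM in control and 38.7, 29 and 19.5 FPKM in I3 libraries. In all 3 genes I3 1 and I3 2 lay above the controls and I3 3 below them. Without I3 3 their unadjusted limma p fell under 0.05, as did that of RPL39, and the adjusted p-values were 0.834 or above. In these genes I3 3 was the library below the controls, so leaving it out had to separate the groups. The lower p is therefore no support for a change.

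Between replicates the members were less variable than the average gene. Their median coefficient of variation was 4.45% in control and 5.91% in I3 libraries, against 9.54% and 8.37% over all tested genes. Among the 244 other genes of at least 100 FPKM it was 5.63% and 5.57%.

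The genes around the ribosome were compared in the same fit. Translation factors and other genes with TOP mRNAs, such as the elongation factor EEF1A1 and the nucleolar protein NPM1, were tested for 17 genes, of which 10 had a log2 fold change above 0 (median 0.00) and none passed an unadjusted p of 0.05. EEF1A1 was at 4024, 4079 and 4198 FPKM in control and 3974, 4375 and 4435 FPKM in I3 libraries. BTF3 had a log2 fold change of 0.04, NPM1 of -0.03 and EIF3F of -0.04. Of 39 genes of ribosome biogenesis, 16 had a log2 fold change above 0 (median -0.01) and none passed an unadjusted p of 0.05. Over all tested genes 54.2% were above 0 (median 0.01), 4.93% passed an unadjusted p of 0.05 and 9.7% had groups without overlap. EFL1, the GTPase that helps to release EIF6 from the new large subunit, was at 9.63, 9.59 and 9.6 FPKM in control and 8.87, 8.71 and 9.26 FPKM in I3 libraries, without overlap, with a limma p of 0.129 and an adjusted p of 0.998. The log2 fold change was 0.16 for UTP15, 0.11 for GRWD1 and -0.13 for BOP1.

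The proteins of the mitochondrial ribosome, which translates mitochondrial mRNA, are encoded by a separate set of nuclear genes. Of 77 such genes, 73 were tested, and 24 had a log2 fold change above 0 and 49 below it, with a median of -0.03. Over all tested genes 54.2% were above 0, with a median of 0.01. The unadjusted test was passed by 0 genes in the higher and by 1 gene in the lower direction, against 2.08% and 2.85% of all tested genes. This gene was MRPL34, at 27.8, 27.2 and 28.8 FPKM in control and 24.9, 24.4 and 23.0 FPKM in I3 libraries, a log2 fold change of -0.21 (SE 0.0555) with a limma p of 0.00641 and an adjusted p of 0.768. MRPS25 and MRPL50 had log2 fold changes of 0.17 and 0.14, and MRPL12 of -0.25. The difference between the cytosolic and the mitochondrial genes was not tested.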

How the data were processed

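The members and gene lists were chosen with earlier results of these data known. The authors deposited FPKM values, normalized to exon length and library total, 1 column per library; none was left out (0). The submitters' processing notes name Trimmomatic, HISAT2, Cufflinks, HTSeq and hg38, without versions or roles. The study's methods used a count model. FPKM is not a count, so limma 3.58.1 (R 4.3.3; eBayes with trend) was applied to log2(FPKM + 0.5) of 12960 genes that reached a mean of 0.5 FPKM, 3 I3 against 3 control libraries, two-sided, with Benjamini-Hochberg adjustment over all of them. Fold changes are on this scale and understate those of low genes. An exact permutation test of 3 against 3 cannot go below a p of 0.1. The methods and labels give 48 h; a legend of the study gives another time. The table's own name gives the compound with a different number.

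Lengths, coordinates and shared exons came from GENCODE 29 on GRCh38 (29703 of 29810 genes matched). FPKM times exon length gave whole reads in all 6 libraries for 95.8% of 26519 genes (tolerance 0.1 read). Replicates differed by more than sampling noise (chi-square per degree of freedom of at least 4.36), which does not show that they came from separate cultures. Each library was counted as 1 sample. The procedure was checked on simulated data. Alternatives were pseudocounts of 0.1 and 1, no minimum and a minimum of 5 FPKM, TPM, median-of-ratios and quantile scaling, eBayes without trend, a replicate block, a GC correction (lowess span of 0.3), voom on rebuilt reads (mean of at least 10) and each library left out. Genes named with values were the 5 highest and 5 lowest members, the 6 with the smallest p in each direction, the 3 most variable in control, the paralogs with their parents, the stalk, fusion and cancer genes, RPS6, RPS19, RPSA, RPL38 and RPL41, and the 2 smallest p in each direction of 3 related lists. Other named genes were chosen after their values were seen. The values of 2 members are not reported here, although they are part of all counts and sums. Sums, ranges and sequence searches were made in Python 3.11.15 (pandas 2.3.3).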

Additional observations from a re-analysis of the deposited data

How the results depend on the processing

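No member was called at the adjusted p and fold threshold under any alternative, and none was lower at an unadjusted p. The count of members higher at an unadjusted p was 1 in the main test, 0 with the GC correction, 0 with the GC correction and replicate block, and 10 with the sign of the libraries' GC correlation as a term, an alternative chosen after seeing the data. It ranged from 0 (without I3 1) to 5 (without I3 3) over the libraries left out, and was 3 without control 1; the cause was not tested. Over all genes, 0 to 1 were called higher (1 without control 1) and 0 to 2 lower (2 without I3 1, 1 without I3 2) when a library was left out. The members' median log2 fold change was 0.00054 without I3 2 and up to 0.05 without I3 3, and the log2 ratio of the summed FPKM ranged from -0.0084 to 0.047. Over the libraries left out, RPL36AL ranged from -0.086 to 0.022 and RPL13 from -0.065 to 0.0037. RPL36AL turned to 0.0081 with quantile normalization, 0.021 with the GC term, 0.0049 without control 2 and 0.022 without I3 3. RPL13 turned to 0.015 with the GC correction, 0.015 with the GC correction and replicate block, and 0.0037 without I3 1. RPL22L1 kept its sign in every setting, with adjusted p-values of 0.433 or above. The correlations between control and I3 samples of the same number were 0.063, 0.15 and -0.024 for numbers 1, 2 and 3. Those between unlike numbers were from -0.17 to 0.10. With 3 samples per group these values cannot settle whether the numbers pair the samples. With a replicate block 856 genes against 639 were under an unadjusted limma p of 0.05, 1 member among them. The other 298 values under alternatives kept their direction and side of the threshold or, without a test, moved by less than the spread between replicates. The members above a log2 fold change of 0 numbered 58 with median-of-ratios scaling and 71 with TPM. The values of RPS10, RPL17 and RPL26 rested on few reads, 14 to 75 in a library.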
